A study of Mus musculus with 17 samples.

Results

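The loss of Asxl1, Dnmt3a or Tet2 in mouse CD8 T cells was examined as one average effect, by setting the 12 libraries of the 3 knockouts against the 5 libraries labelled Rosa KO. The members were taken from the genetic modification given for each library, and together they make up 17 of the 17 libraries of the series. Each knockout has 4 libraries and each counts equally in the average. All libraries are RNA sequencing of CD8 T cells from mouse spleen with the genotype CD8+Thy1.1+, where Thy1.1 is an allele of the Thy1 surface protein often used to follow transferred cells, and the Rosa KO group carries a modification at the Rosa locus, a customary neutral site. The labels give no strain, age, treatment or day of collection and do not say how the genes were modified, while the series title speaks of stemness and immunotherapy. They also do not state that replicates came from different mice or cultures, so the p-values given here speak only of the spread between libraries.

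ASXL1 belongs to the Polycomb deubiquitinase complex, which removes ubiquitin from histone H2A, DNMT3A places methyl groups on unmethylated cytosines in DNA, and TET2 oxidises methylcytosine as a step towards its removal. Mutations of all of these genes are found in clonal haematopoiesis, the expansion of a blood stem cell clone in people without leukaemia. In CD8 T cells, TCF1 (encoded by Tcf7) marks stem-like cells that keep the ability to renew, whereas T-bet and ZEB2 are associated with terminal effector cells that carry KLRG1, granzymes and receptors of the natural killer (NK) lectin family.

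The library numbers in the sample descriptions fall into 3 stretches, called runs here, and the labels do not call them batches. Run 1 holds 1 Rosa KO, 2 Dnmt3a KO and 1 Asxl1 KO library. Run 2 holds 2 Dnmt3a KO, 1 Asxl1 KO and 2 Tet2 KO libraries and no Rosa KO library. Run 3 holds the other 4 Rosa KO libraries with 2 Asxl1 KO and 2 Tet2 KO libraries. Run was a term of the model, so the Dnmt3a KO libraries met a Rosa KO library of their own run only in run 1, and the Tet2 KO libraries only in run 3.

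The total count per library ran from 6625833 in Rosa KO 5 to 40701203 in Rosa KO 4. The defining transcripts of the labelled cell type were present in all 17 libraries: Cd3e lay between 1246 and 4966 CPM (the count of a gene scaled to the library's total), Cd8a between 640.7 and 1240 and Cd8b1 between 399.9 and 1224. Cd4, which marks helper T cells, was read at 0.0905 to 99.5 CPM. The transcripts of the targeted genes did not differ from Rosa KO on average. For Asxl1 the difference on the log2 scale was -0.04 ± 0.18 (SE; adjusted p = 0.952), Dnmt3a -0.07 ± 0.21 (adjusted p = 0.941) and Tet2 -0.21 ± 0.19 (adjusted p = 0.706) by edgeR's quasi-likelihood test. How the genes were modified is not given, and a modification need not change the whole-gene count, so these values do not check the labels.

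On average over the 3 knockouts, Zeb2, S1pr5, Gzma and Gzmb were lower and Tcf7, Xcl1 and Cxcr3 were higher. In Tet2 KO the log2 fold changes of Gzma and Gzmb were small, at -0.20 and -0.27. The falls were the more stable side of the comparison. Of 13881 genes tested, 187 (1.35%) differed between the average of the 3 knockouts and Rosa KO at an adjusted p under 0.05, 84 of them higher (0.605%) and 103 lower (0.742%). The median log2 fold change over all tested genes was -0.013. In size, 33 of the higher genes and 46 of the lower genes passed 1 on the log2 scale. In CPM, which does not take run into account, all 12 knockout libraries lay above all 5 Rosa KO libraries for 13 genes (0.0937%) and below them for 27 genes (0.195%). Among the genes that passed the test, these separations numbered 6 and 18. The counts of changed genes moved with single libraries, from 51 without Tet2 KO 3 to 364 without Asxl1 KO 1, and without the run term 6 of the 84 rises and 35 of the 103 falls still passed.

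The stretch of 120 bases just upstream of the annotated start is shown for 4 genes that fell and 1 that rose. It lies just before the annotated start of transcription. DNMT3A and TET2 act on cytosines of CG dinucleotides, which are given in capitals. All are from RefSeq on GRCm38.p6, the assembly also called mm10, and are written 5′ to 3′ on the strand of the gene. No methylation was measured in these libraries. Zeb2 is read from chr2:45117443-45117562 (minus strand), S1pr5 from chr9:21248444-21248563 (minus strand), Itgam from chr7:128062520-128062639 (plus strand), Klrb1c from chr6:128788642-128788761 (minus strand) and Cxcr3 from chrX:101734148-101734267 (minus strand).
Zeb2: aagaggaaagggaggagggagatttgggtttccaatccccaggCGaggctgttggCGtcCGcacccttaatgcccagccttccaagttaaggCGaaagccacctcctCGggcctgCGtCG
S1pr5: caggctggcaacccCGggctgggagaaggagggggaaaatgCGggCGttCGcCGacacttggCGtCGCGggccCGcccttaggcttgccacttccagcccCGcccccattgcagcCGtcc
Itgam: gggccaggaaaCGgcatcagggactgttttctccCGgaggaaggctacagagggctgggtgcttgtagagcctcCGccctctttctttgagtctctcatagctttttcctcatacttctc
Klrb1c: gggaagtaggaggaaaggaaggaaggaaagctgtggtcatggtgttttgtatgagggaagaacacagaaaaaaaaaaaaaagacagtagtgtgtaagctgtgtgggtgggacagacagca
Cxcr3: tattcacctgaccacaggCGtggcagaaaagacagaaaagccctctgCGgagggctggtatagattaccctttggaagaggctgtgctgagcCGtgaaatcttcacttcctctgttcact
The stretch held 7 CG dinucleotides at Zeb2, 11 at S1pr5, 3 at Itgam, 0 at Klrb1c and 3 at Cxcr3. Genes that fell on average in the knockouts therefore had stretches both rich and poor in CG before the start.

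Zeb2 (chr2:44983512-45117442, minus strand), which encodes a zinc finger repressor of terminal effector cells, was read at 758.1, 1134, 1107, 1040 and 1366 CPM in Rosa KO 1 to 5. The knockout libraries ran from 200.5 through a median of 313.9 to 829.8 CPM. The groups overlapped only through Tet2 KO 2, which lay above Rosa KO 1. The log2 fold change was -1.88 ± 0.17 (SE), with an adjusted p of 1.05e-06 and a range of 3.1e-36 to 0.037 over the 34 alternative settings, all of which it passed. Zeb2 overlaps the antisense gene Zeb2os and Mir5129, and whether counting used the strand is not given in the sources used here. The values of the separate knockouts, which share the Rosa KO libraries, were -2.27 in Asxl1 KO, -1.69 in Dnmt3a KO and -1.67 in Tet2 KO.

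S1pr5 (chr9:21242917-21248443, minus strand), a receptor for sphingosine-1-phosphate that guides effector and NK cells out of tissues, was read at 191, 219.8, 335.2, 316.2 and 245 CPM in the Rosa KO libraries and between 43.9 and 107.5 CPM, with a median of 66.2, in the knockouts. No knockout library reached the lowest Rosa KO library. Its log2 fold change was -1.99 ± 0.20 (adjusted p = 2.13e-06), and S1pr5 and Zeb2 were the 2 genes that passed in all 34 alternative settings. Itgam (chr7:128062640-128118491, plus strand), the αM integrin of myeloid and effector lymphoid cells, was at 341.8, 364.6, 409.1, 368.3 and 395.8 CPM in Rosa KO and at 117.1 to 194.4 CPM (median 140.2) in the knockouts, again without overlap. The Itgam difference of -1.34 ± 0.15 (adjusted p = 1.68e-05) was of like size in the separate knockouts, at -1.32, -1.36 and -1.33 for Asxl1, Dnmt3a and Tet2 KO. Ccl9, a chemokine gene, stood at 126.5 to 192.2 CPM in Rosa KO and at 20.8 to 60.9 CPM (median 34.5) in the knockouts, a log2 fold change of -2.12 ± 0.24 (adjusted p = 1.68e-05).

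**Figure D1:**
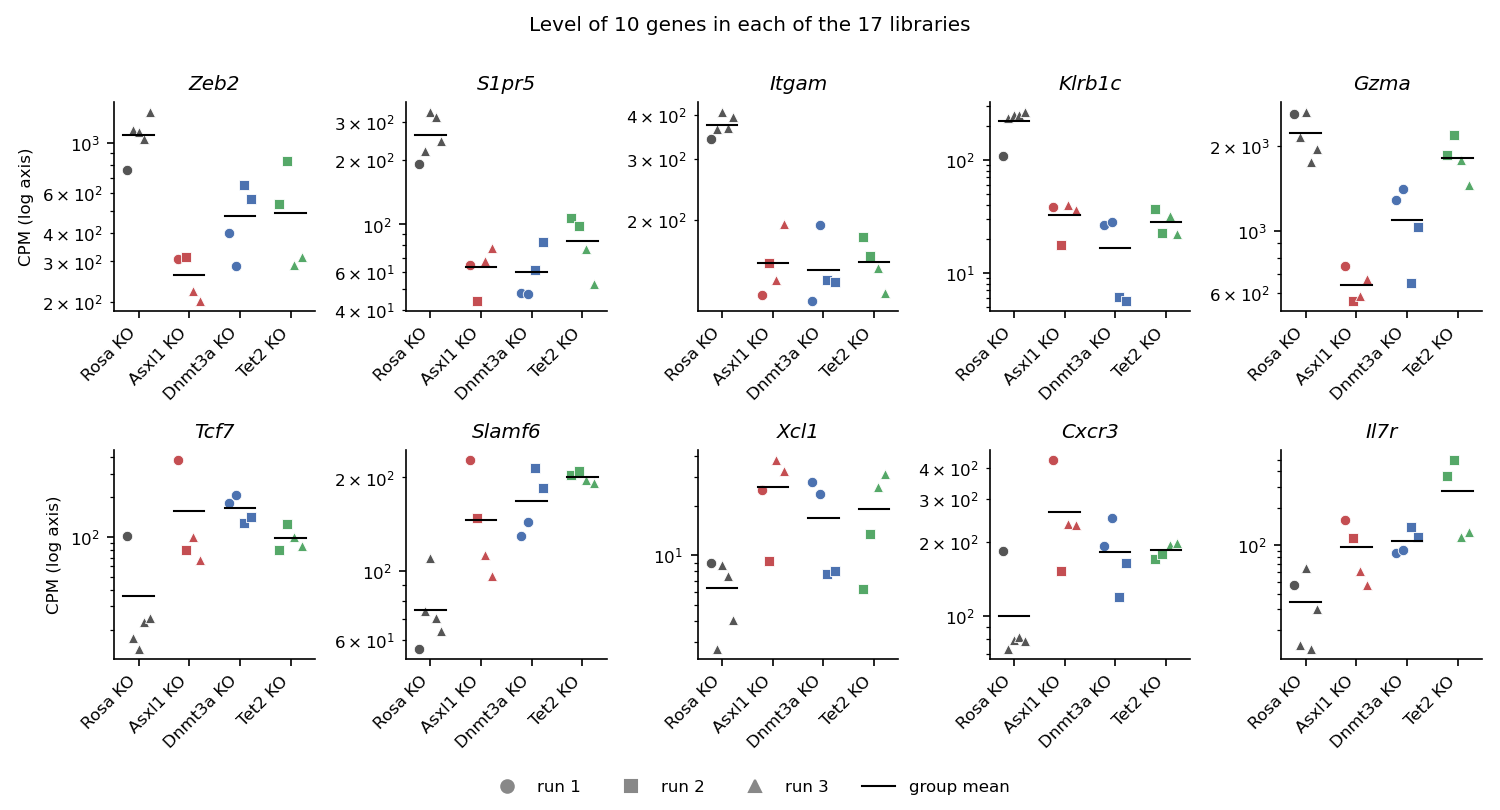
Level of 10 named genes in each of the 17 libraries, in CPM on a log axis, with a marker shape for each run and a line at each group's mean. The knockout libraries sit below Rosa KO for S1pr5, Itgam and Klrb1c, and all of them lie above the 4 Rosa KO libraries of run 3 for Tcf7 and Cxcr3.

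Of 35 effector and cytotoxic genes, 14 fell and the other 21 did not pass, against 0.742% of all tested genes lower. All gene lists here were chosen with earlier results of these data known, so such shares are a description and no independent support. The median log2 fold change of the list was -0.41, beside -0.013 for all genes. Klrg1, an inhibitory lectin receptor of terminal effector cells, was at 98.79, 194.5, 160.3, 165.4 and 148.1 CPM in Rosa KO and at 25.6 to 88.5 CPM (median 51.9) in the knockouts, without overlap, and fell by 1.58 ± 0.24 on the log2 scale (adjusted p = 0.000605). Gzmb, the main cytotoxic granzyme, was at 1717, 1556, 2090, 1488 and 1577 CPM in Rosa KO and at 587.2 to 1548 CPM (median 926.6) in the knockouts, a fall of 0.58 ± 0.11 on the log2 scale (adjusted p = 0.00799). Its highest knockout library lay above Rosa KO 4 only. The separate values of Gzmb were -0.61 in Asxl1 KO, -0.87 in Dnmt3a KO and -0.27 in Tet2 KO. Gzmb passed in 28 of the 34 settings (adjusted p up to 0.117). Among the settings it did not pass were equal weight per library and the fit without the Dnmt3a KO libraries. It also did not pass with the share of counts in genes under 10 kb as a covariate (0.0579). Klre1 fell by 1.35 ± 0.19 (adjusted p = 0.000141), Il18rap, a subunit of the interleukin 18 receptor, by 1.23 ± 0.17 (adjusted p = 0.000115) and Fasl, a death ligand, by 0.90 on the log2 scale (adjusted p = 0.00109). Fasl differed among the knockouts (adjusted p = 0.00385), at -0.27 in Asxl1 KO, -1.15 in Dnmt3a KO and -1.27 in Tet2 KO. It passed in 29 of the 34 settings, and not with equal weight per library or without the Tet2 KO libraries (0.167). Serpinb9, a granzyme inhibitor, fell by 0.69 (adjusted p = 0.0176) and the chemokine gene Ccl4 by 0.86 (adjusted p = 0.0381), both named after their values were seen. Cx3cr1, the fractalkine receptor of circulating effector cells, passed narrowly at -0.87 ± 0.21 (adjusted p = 0.0431) and in 6 of the 17 fits that left out 1 library, where its adjusted p reached 0.184.

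Gzma, the tryptase granzyme, differed among the knockouts (adjusted p = 1.15e-05, a test that does not use the Rosa KO libraries). Its average of -1.07 ± 0.14 (adjusted p = 9.94e-05) was made of -1.81 in Asxl1 KO, -1.19 in Dnmt3a KO and -0.20 in Tet2 KO. The average of Gzma passed in 33 of the 34 settings, and not with equal weight per library (0.232). The 5 Rosa KO libraries read 2596, 2145, 2642, 1747 and 1940 CPM and the knockout libraries 560.9 to 2183 CPM with a median of 1155, so the groups overlapped. Cdc20b spans Gzma and changed by -3.75 ± 0.60 (adjusted p = 0.000935), at -6.28 in Asxl1 KO, -2.99 in Dnmt3a KO and -1.98 in Tet2 KO. Whether reads of Gzma were counted for Cdc20b is not given in the sources used here and was not tested. Other central effector genes did not pass. Tbx21, encoding T-bet, had a log2 fold change of -0.59 (adjusted p = 0.266) and Prf1, encoding perforin, -0.38 (adjusted p = 0.379), while Nkg7 was at 0.23, Ccl5 at -0.02 and Prdm1 at -0.17.

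Ifng, encoding interferon γ, did not pass either, at -0.57 ± 0.24 (adjusted p = 0.282). Its Rosa KO libraries read 81.92 CPM in Rosa KO 1 and 398.2 to 423.3 CPM in the 4 libraries of run 3, against 63.8 to 296.1 CPM (median 121.4) in the knockouts. Within run 3 the Ifng difference was -0.81 (adjusted p = 0.00029), and in run 1 it was 0.43. In bulk RNA, fewer cells of a kind and less RNA per cell cannot be told apart, which holds for each of these genes. Between 10 (without Tet2 KO 3 or 4) and 16 of the 35 effector genes fell in fits that left out 1 library, 10 without the run term and 9 without the Tet2 KO libraries.

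Of the 16 tested NK lectin receptor genes, out of 18 on the list, 5 fell and 11 did not pass, beside 0.742% of all tested genes lower. The median log2 fold change of the list was -1.21. Klrb1c (chr6:128778485-128788641, minus strand), encoding NK1.1, was read at 108.4, 234.1, 248.2, 247 and 265.7 CPM in Rosa KO. In the knockouts it lay between 5.59 and 39.5 CPM, with a median of 27.3, and no library overlapped. Its log2 fold change of -2.88 ± 0.34 (adjusted p = 9.94e-05) was made of -2.62 in Asxl1 KO, -3.65 in Dnmt3a KO and -2.38 in Tet2 KO. Klrc1, encoding the inhibitory receptor NKG2A, fell by 1.15 on the log2 scale (adjusted p = 0.00467), and Klra3, named after its value was seen, passed as well (adjusted p = 0.022).

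Klra9, an inhibitory Ly49 receptor gene, fell on average by 1.60 on the log2 scale (adjusted p = 0.00109) with a difference among the knockouts (adjusted p = 0.00376): -1.83 in Asxl1 KO, -2.54 in Dnmt3a KO and -0.42 in Tet2 KO. Klrc2, encoding the activating receptor NKG2C, had -1.73 ± 0.22 (adjusted p = 9.94e-05), but its knockout libraries spread from 35.5 to 774.3 CPM around the Rosa KO range of 129.6 to 385.4 CPM, and without the run term its value was -0.67 (adjusted p = 0.80). Over the 34 settings the adjusted p of Klrc2 ran from 5.39e-23 to 0.921, and 31 passed. The Klr and Klra genes are close paralogs, and how reads shared between copies were counted is not given in the sources used here. The summed level of the NK cell list was 2602 to 3569 CPM in the Rosa KO libraries and 1038 to 2718 CPM in the knockouts, with 4 of 11 tested markers lower (Klrb1c, Gzma, Klre1 and Il12rb2) and 1 higher (Eomes). The other 6 did not pass, and the median of the list was -0.91 with 8 of 11 negative. Of all tested genes, 0.742% were lower and 0.605% higher. Ncr1, encoding NKp46, stood at a mean of 1.85 CPM in Rosa KO and 1.93 CPM in the knockouts. The part of NK cells in these falls was not tested.

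Of 26 stem-like and progenitor genes, 6 rose and 20 did not pass, against 0.605% of all tested genes higher, and the median of the list was 0.12. This list too was chosen with earlier results of these data known. Tcf7 (chr11:52246527-52283383), the transcription factor gene that marks this state, was read at 101.8 CPM in Rosa KO 1 and at 17.32, 14.16, 22.75 and 24.63 CPM in Rosa KO 2 to 5. The knockout libraries ran from 67.6 through a median of 113.1 to 382.6 CPM, all above the 4 Rosa KO libraries of run 3 and partly below Rosa KO 1. The Tcf7 difference was 1.89 ± 0.24 (adjusted p = 7.38e-05), at 1.94 in Asxl1 KO, 1.79 in Dnmt3a KO and 1.95 in Tet2 KO. It passed in 33 of 34 alternative settings, with an adjusted p between 7.28e-19 and 0.142, and the largest belongs to the fit without the run term, where the estimate was 1.91. Tcf7 overlaps Skp1.

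Xcl1, a chemokine that attracts cross-presenting dendritic cells, was read at 8.97, 2.69, 8.68, 7.48 and 4.08 CPM in Rosa KO. Its knockout libraries ran from 6.29 to 37.9 CPM with a median of 24.2, so the lowest of them overlapped Rosa KO. The change was 2.13 ± 0.36 (adjusted p = 0.00204), which did not pass without the run term (adjusted p = 0.169; 1.64e-07 to 0.468 over the 34 settings, of which 29 passed). Icos, a costimulatory receptor, rose by 0.82 ± 0.15 (adjusted p = 0.00461). Icos passed in 28 of the 34 settings. Among those it did not pass were the fits without the run term (0.0761) and without the Tet2 KO libraries (0.0699). It also did not pass with the share of counts in genes under 10 kb as a covariate (0.179). Slamf6, encoding a SLAM family receptor used to sort progenitor cells, read 56.03, 74.65, 110.5, 70.72 and 64.36 CPM in Rosa KO and 96.4 to 227.9 CPM (median 188.6) in the knockouts, overlapping through Rosa KO 3. Its rise of 1.03 ± 0.21 (adjusted p = 0.0132) did not pass without Rosa KO 1 or without Tet2 KO 3, where the adjusted p reached 0.0971. The other genes of the list that rose were Nsg2, by 1.63 ± 0.38 (adjusted p = 0.0313), and Eomes, a T-box factor shared by memory and NK cells, by 0.84 ± 0.17 (adjusted p = 0.0152). Nsg2 passed in 10 of the 17 fits without 1 library and in 18 of the 34 settings (adjusted p up to 0.584), and Eomes in 16 and 26. Eomes is named after its value was seen.

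The list did not move as one. Lef1, the partner of TCF1, had a log2 fold change of -0.68 ± 0.25 (adjusted p = 0.186), and its 15.3 to 67.8 CPM in the knockouts covered most of the Rosa KO range of 31.55 to 73.33 CPM. Il7r, the interleukin 7 receptor of memory cells, was at 46.74, 15.26, 64.57, 13.93 and 29.76 CPM in Rosa KO and at 46.9 to 498.1 CPM (median 116.2) in the knockouts. Its average of 1.24 ± 0.35 did not pass (adjusted p = 0.11), and the separate values were 0.93 in Asxl1 KO, 0.55 in Dnmt3a KO and 2.23 in Tet2 KO. Between 4 and 7 of the stem-like genes rose in fits without 1 library, 4 of them without Rosa KO 5 or Tet2 KO 3, and 2 rose without the run term or without the Tet2 KO libraries.

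**Figure D2:**
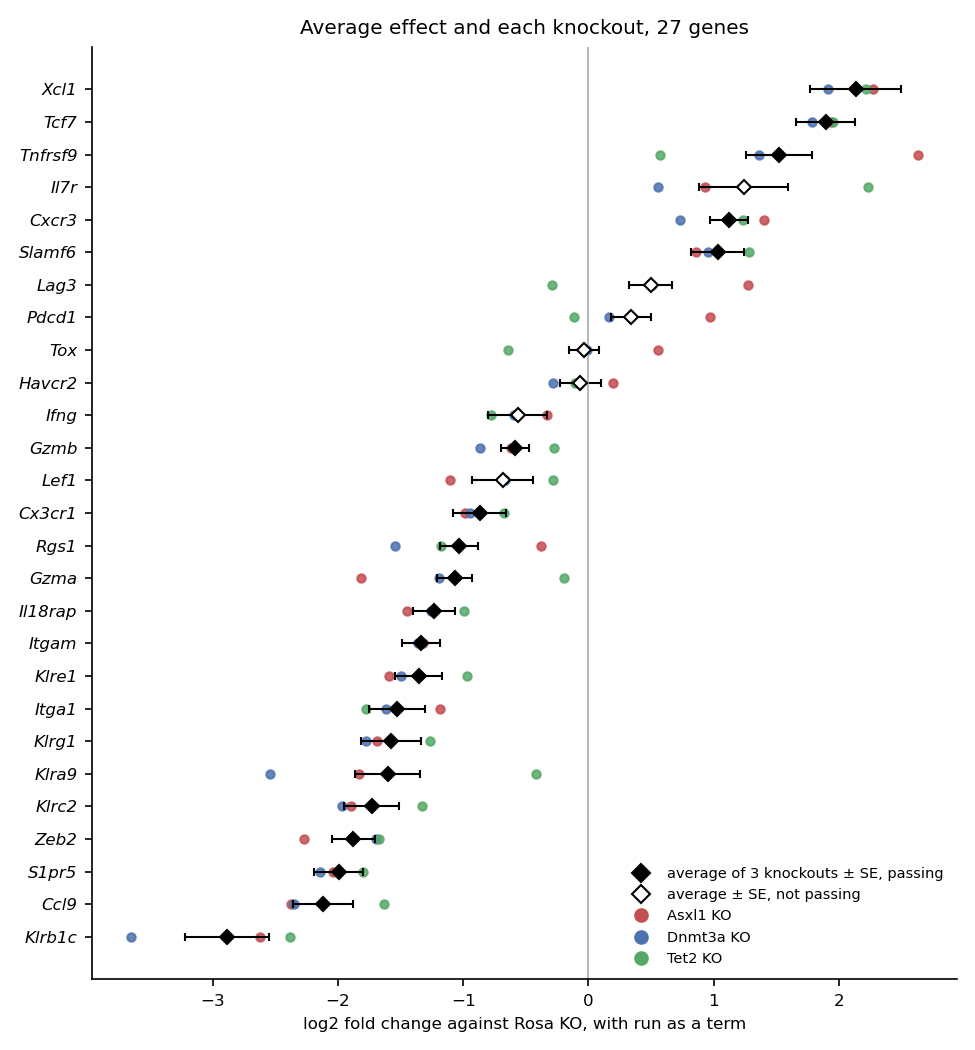
Log2 fold change against Rosa KO of 27 named genes, as the average of the 3 knockouts with its standard error (bars) and for each knockout (points), which share the 5 Rosa KO libraries. Zeb2, S1pr5 and Itgam hold similar values in each knockout, whereas the points of Gzma, Tox, Tnfrsf9 and Lag3 lie far apart.

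An average hides genes on which the knockouts differ. The test among the 3 knockouts called 85 of the tested genes (0.612%), of which 17 also differed on average from Rosa KO and 68 did not. Of 27 exhaustion and activation genes, 12 differed among the knockouts, while on average 1 rose, 3 fell and 23 did not pass. Of all tested genes, 0.605% rose and 0.742% fell on average. Tox, the factor of exhausted cells, had an average of -0.03 (adjusted p = 0.946) made of 0.56 in Asxl1 KO, -0.01 in Dnmt3a KO and -0.65 in Tet2 KO, which differed (adjusted p = 8.55e-05). Lag3, an inhibitory receptor, averaged 0.50 (adjusted p = 0.17) from 1.27, 0.51 and -0.29 (adjusted p of the difference = 0.000352), and Pdcd1, encoding PD-1, averaged 0.34 (adjusted p = 0.356) from 0.97, 0.16 and -0.12 (adjusted p of the difference = 0.00771). Havcr2, encoding TIM-3, was at -0.06 (adjusted p = 0.923).

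Tnfrsf9, the costimulatory receptor 4-1BB, was the exhaustion and activation gene that rose. It read 42.76, 24.51, 11.14, 14.47 and 15.56 CPM in Rosa KO and 8.74 to 180.8 CPM (median 51.2) in the knockouts, with overlap. Its average of 1.52 ± 0.26 (adjusted p = 0.00268) came from 2.63 in Asxl1 KO, 1.36 in Dnmt3a KO and 0.57 in Tet2 KO, which differed (adjusted p = 0.00139). The average of Tnfrsf9 did not pass in 6 of 34 settings (adjusted p 3.64e-07 to 0.58), among them those without the run term (0.32), with equal weight per library, without the Asxl1 KO libraries and with the share of counts in genes under 10 kb as a covariate (0.252). The genes that fell were Bhlhe40, Rgs1 and Entpd1. Bhlhe40, a transcription factor of cytokine-producing T cells, was at 498.3, 716.5, 623.1, 633.3 and 752.8 CPM in Rosa KO and at 180.3 to 376.4 CPM (median 288.8) in the knockouts, without overlap, a log2 fold change of -0.98 ± 0.14 (adjusted p = 0.000288). Rgs1, a brake on chemokine receptor signalling, fell by 1.03 ± 0.15 (adjusted p = 0.000293), with -0.38 in Asxl1 KO against -1.55 and -1.18 in Dnmt3a KO and Tet2 KO. Entpd1, encoding the ectonucleotidase CD39, fell by 0.74 on average (adjusted p = 0.00325), with 0.07 in Asxl1 KO, -0.90 in Dnmt3a KO and -1.40 in Tet2 KO. The average of Entpd1 passed in 28 of 34 settings. Among those it did not pass were the fits without the run term (0.494), with equal weight per library (0.512) and without the Tet2 KO libraries (0.298). It also did not pass with the share of short genes as a covariate (0.103).

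Of 22 genes of trafficking and residency, 1 rose, 4 fell and 17 did not pass, beside 0.605% of all tested genes higher and 0.742% lower. Cxcr3 (chrX:101731535-101734147, minus strand), the receptor for interferon-induced chemokines, was the one that rose. It was read at 183.8 CPM in Rosa KO 1 and at 72.75, 79.44, 81.58 and 78.71 CPM in Rosa KO 2 to 5, against 119.1 to 432.7 CPM (median 192.9) in the knockouts. All knockout libraries lay above the 4 Rosa KO libraries of run 3, and the difference was 1.12 ± 0.15 (adjusted p = 0.000133; 0.00106 at most when 1 library was left out). Over all 34 settings the adjusted p of Cxcr3 ran from 5.31e-09 to 0.182, and it did not pass without the run term (0.0707), with the share of short genes as a covariate (0.0947), with the replicate block in place of run or in run 1 alone (0.182). Itga1, an integrin subunit of tissue-resident T cells, fell by 1.53 ± 0.22 (adjusted p = 0.000359) and overlaps Pelo. Cd69, which opposes tissue exit, had -0.81 (adjusted p = 0.0413) and passed in 7 of the 17 fits without 1 library, in which its adjusted p reached 0.137. The other 2 genes of the list that fell were S1pr5 and Cx3cr1.

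Of 28 cytokine receptor and signalling genes, 3 fell, beside 0.742% of all tested genes: Il18rap, Il12rb2 and Il18r1. Il12rb2, the signalling chain of the interleukin 12 receptor, fell by 1.85 ± 0.32 (adjusted p = 0.00288) with no overlap of libraries, and overlaps Serbp1. Il18r1 had -0.61 (adjusted p = 0.0413) and passed in 7 of the 17 fits without 1 library (adjusted p up to 0.183). Among 26 G protein coupled receptor and RGS genes, 3 fell, beside the same 0.742% of all tested genes: Rgs1, Gpr55 and Cmklr1. Gpr55, a lysophospholipid receptor, averaged -1.78 ± 0.30 (adjusted p = 0.00185), and this came from Dnmt3a KO (-2.35) and Tet2 KO (-3.13) but not from Asxl1 KO (0.14), a difference with an adjusted p of 1.11e-05. Cmklr1, the chemerin receptor, fell by 1.45 (adjusted p = 0.0108; 0.0505 without Tet2 KO 3).

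Of 28 genes of the T cell receptor complex and its proximal signalling, 2 rose and 1 fell, beside 0.605% of all tested genes higher and 0.742% lower. The rises held in fewer fits than the fall. Lat, the adaptor of the activated receptor, rose by 0.73 (adjusted p = 0.0214) with 1.33, 0.19 and 0.67 in Asxl1, Dnmt3a and Tet2 KO, which differed (adjusted p = 0.00537). It failed without Rosa KO 1, 4 or 5 or Tet2 KO 3 or 4 and passed in the other 12 of 17 fits (adjusted p up to 0.0847), and Cd3d, at 0.57 (adjusted p = 0.0431), in 7 (up to 0.124). Ubash3b, a phosphatase that damps receptor signalling, averaged -0.64 (adjusted p = 0.0233; up to 0.114 without Rosa KO 5, Tet2 KO 3 or Asxl1 KO 3) and was carried by Tet2 KO at -1.69, beside -0.08 in Asxl1 KO and -0.14 in Dnmt3a KO (adjusted p of the difference = 1.11e-05). Of 23 apoptosis regulators, 2 fell, beside 0.742% of all tested genes: Fasl and Bcl2l11. The latter encodes the death activator BIM and changed by -0.91 (adjusted p = 0.00358). Bcl2l11 passed in 29 of 34 settings, and not without the run term (0.278) or with the share of short genes as a covariate (0.215).

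Genes of protein synthesis and energy were among the rises, and 14 of the 84 were Rpl or Rps genes. Of 46 cytosolic ribosome genes 7 rose and 39 did not pass, beside 0.605% of all tested genes higher, with a list median of 0.41. Rplp0 rose by 0.66 ± 0.14 (adjusted p = 0.0214), Rpl12 by 0.60 (adjusted p = 0.0258) and Rps20 by 0.52 (adjusted p = 0.0277). Of 40 oxidative phosphorylation genes, 4 rose: Cox5b at 0.93, Cox5a at 0.71, Atp5e at 0.72 and Uqcrh at 0.53, and none of these passed without Rosa KO 1, Rosa KO 5, Tet2 KO 3, Tet2 KO 4 or Asxl1 KO 3. Ldha, the lactate dehydrogenase gene, rose by 0.63 (adjusted p = 0.0239) as 1 of 20 glycolysis genes. The ribosomal count was 0 without Dnmt3a KO 2, without Rosa KO 5, without Tet2 KO 3 and without Asxl1 KO 3, and at most 18 without another library, and it was 0 without the run term, with a median of 0.05. At an unadjusted p under 0.05, 39 of the 46 were higher, while 1858 of all 13881 tested genes differed in either direction. DESeq2 and limma-voom each called 16 of the list, beside 1.69% and 0.915% of all genes higher.

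These rises went with a measure of the libraries. The genes that rose had a median span of 5.87 kb, those that fell 33 kb and all tested genes 21.61 kb. In run 3, genes under 10 kb took 32.44 to 35.01% of the counts in the knockouts and 26.78 to 31.06% in Rosa KO, and ribosomal protein genes 5.32 to 6.22% and 3.48 to 4.73%. In run 1 these shares did not separate the groups, at 25.72 to 27.74% in 3 knockout libraries beside 26.74% in Rosa KO 1 for short genes, and at 3.78 to 4.63% beside 3.90% for ribosomal protein genes. Malat1, a nuclear RNA, took 0.598 to 0.782% of the counts in the knockouts of run 3 and 1.06 to 1.51% in Rosa KO, and in run 1 it took 0.674 to 0.896% beside 1.18% in Rosa KO 1. With the share of short genes as a covariate, an alternative chosen after seeing the data, 2 genes were higher (Tcf7 and Kbtbd11) and 16 lower, among them Zeb2, S1pr5, Itgam, Klrb1c, Gzma, Bhlhe40 and Ccl9. In run 3 this share separated the groups, and it is partly made of the genes that rose. A call lost with this covariate therefore cannot tell the share from the knockouts. Some estimates hardly moved, such as Icos at 0.81 beside 0.82, and others shrank, such as Rplp0 at 0.35 beside 0.66.

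**Figure D3:**
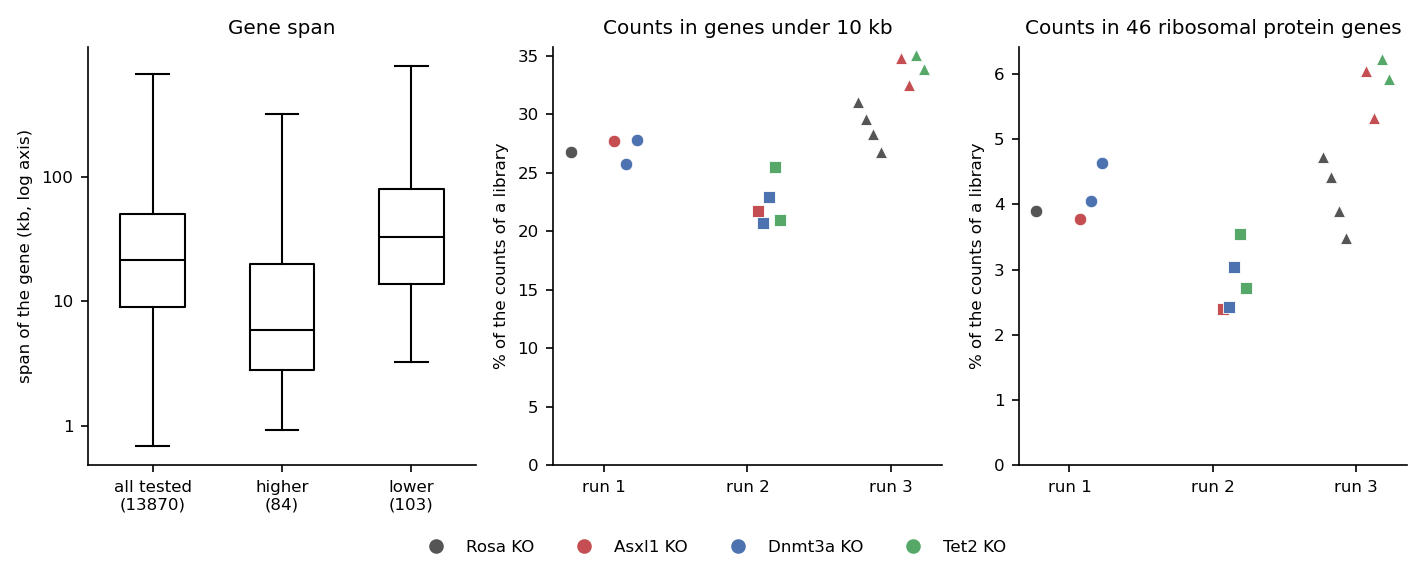
Box plots of gene span (kb, log axis; box with quartiles and median) for all tested genes and those that rose or fell, and the share of each library's counts in genes under 10 kb and in ribosomal protein genes (percent), by run. Genes that rose are short, and in run 3 the shares of the knockout libraries lie above those of Rosa KO without overlap.

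Proliferation genes leaned higher as a list. All 40 had a positive log2 fold change with a median of 0.78, yet 2 passed on average, beside 0.605% of all tested genes higher. They were Ccnb2, a mitotic cyclin, up by 1.30 ± 0.25 (adjusted p = 0.00732; 0.0526 without Tet2 KO 3), and Dut, which keeps uracil out of DNA, up by 1.02 ± 0.19 (adjusted p = 0.00461). Between 1 (without Tet2 KO 3) and 13 (without Asxl1 KO 2) passed in fits without 1 library and 0 without the run term. Within run 3, 22 were higher, beside 2.99% of all genes tested there. At an unadjusted p under 0.05, 28 were higher, while 1858 of all 13881 tested genes differed in either direction. DESeq2 called 12 and limma-voom 5, beside 1.69% and 0.915% of all genes higher. Asf1b, a histone chaperone gene of dividing cells chosen for its size of change, rose by 1.51 ± 0.30 (adjusted p = 0.00922; 0.0525 without Tet2 KO 3).

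Of 34 interferon response genes, 6 rose and 28 did not pass, beside 0.605% of all tested genes higher, with a list median of 0.18. Ifi27l2a rose by 0.93 ± 0.16 (adjusted p = 0.00204) and Cxcl10, a ligand of CXCR3, by 1.48 ± 0.30 (adjusted p = 0.012), and both passed when any 1 library was left out. Bst2, encoding tetherin, at 0.90 (adjusted p = 0.0277; up to 0.126), and Ly6a, encoding Sca-1, at 0.57 (adjusted p = 0.0279; up to 0.148), passed in 10 and 9 of those 17 fits. The other members, Oas1a (0.80) and Oas3 (0.73), are named after their values were seen. The list's count ran from 2 (without Dnmt3a KO 2, Rosa KO 4, Rosa KO 5, Tet2 KO 3 or Tet2 KO 4) to 6 when 1 library was left out, and it was 0 without the run term or without the Tet2 KO libraries. Cxcl10 overlaps Art3. Among 19 MHC and antigen processing genes, 1 rose, the immunoproteasome subunit gene Psmb10, at 0.68 (adjusted p = 0.0446; up to 0.157 in fits without 1 library, of which it passed 5).

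Immediate early genes, which answer a fresh stimulus within minutes to hours, leaned lower: 21 of 25 had a negative log2 fold change, with a median of -0.57, and 3 fell (Rgs1, Klf6 and Cd69) while 1 rose. Over all tested genes, 0.742% fell and 0.605% rose. Klf6 fell by 1.17 ± 0.22 (adjusted p = 0.0107; up to 0.0617 without Tet2 KO 3 or Tet2 KO 4). Ier3 was the member that rose, with 3.60, 5.30, 1.68, 7.27 and 6.80 CPM in Rosa KO and 7.60 to 38.4 CPM (median 12.7) in the knockouts. Its libraries did not overlap, but its difference of 1.71 ± 0.42 (adjusted p = 0.0413; up to 0.125) passed in 4 of the 17 fits that left out 1 library. Within run 3, 14 of the 25 fell, beside 3.38% of all genes tested there. Over all runs, the count of falls was 1 without Tet2 KO 3 or Tet2 KO 4 and 5 without Asxl1 KO 1 or Asxl1 KO 2.

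**Figure D4:**
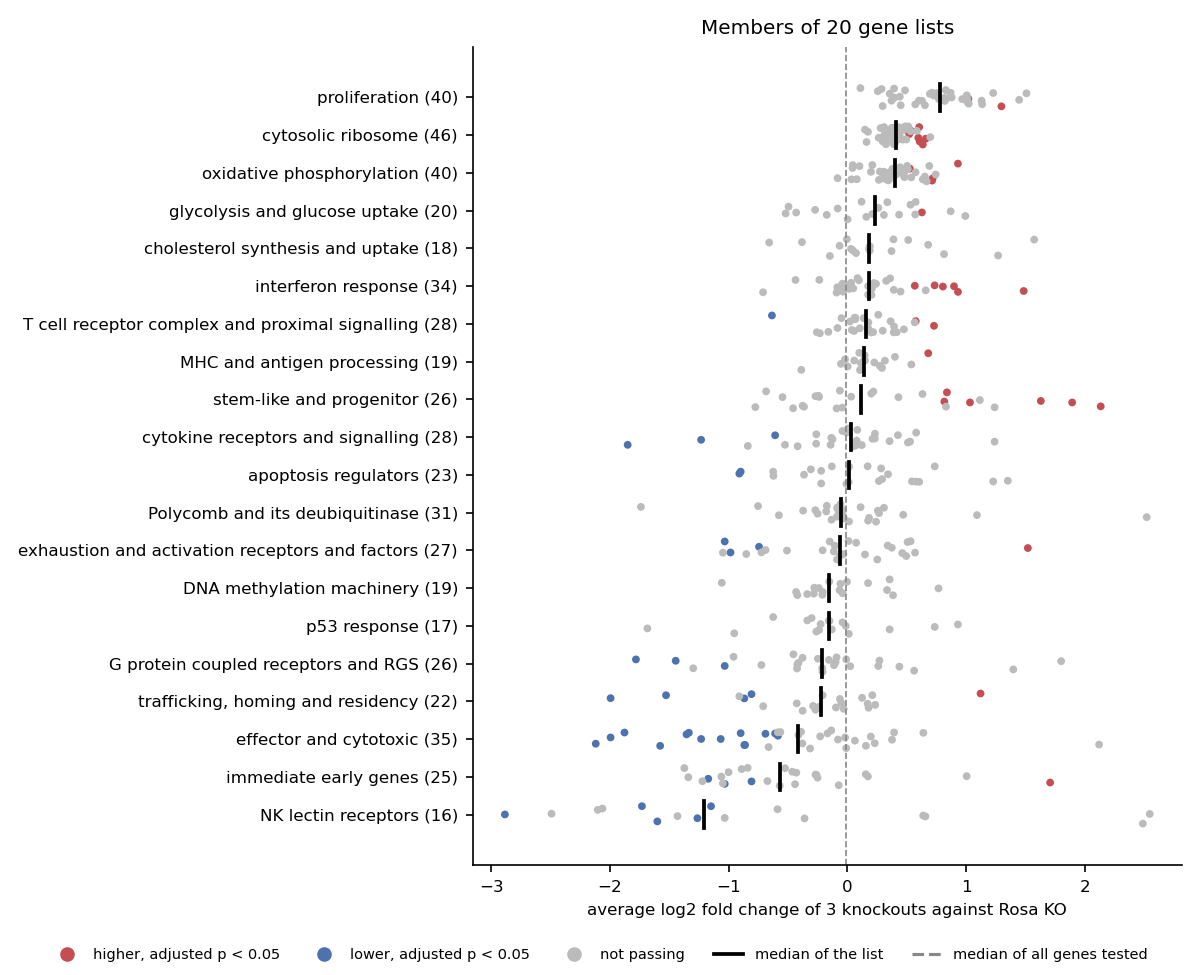
Log2 fold change of every tested member of 20 gene lists (points, red or blue where the adjusted p is under 0.05) with the list median (bar). The NK lectin and immediate early lists have medians of -1.21 and -0.57, the proliferation list 0.78, and the Polycomb and DNA methylation lists hold grey points only.

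The machinery to which the targeted genes belong did not pass. For comparison, 1858 of all 13881 tested genes differed in either direction at an unadjusted p under 0.05. Of 31 genes of Polycomb and its deubiquitinase, edgeR called 0 (median -0.055), with 1 higher and 3 lower at an unadjusted p under 0.05, 1 higher by DESeq2 and 0 by limma-voom. Of 19 genes of DNA methylation, edgeR called 0 (median -0.153), with 1 higher at an unadjusted p under 0.05 and 0 by DESeq2 or limma-voom. Of 17 tested p53 response genes edgeR, DESeq2 and limma-voom called 0, with 1 higher and 2 lower at an unadjusted p under 0.05. Of 18 cholesterol genes edgeR called 0, with 3 higher at an unadjusted p under 0.05, 3 higher by DESeq2 and 0 by limma-voom.

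Among the largest falls, Srcin1 (-5.10 ± 1.21; adjusted p = 0.0358), Rtl5 (-4.11; adjusted p = 0.0377) and the mast cell protease gene Cma1 (-3.42 ± 0.83; adjusted p = 0.0377) were read at low levels. Srcin1 stood at 1.40, 10.3, 26.3, 2.88 and 6.19 CPM in Rosa KO and at 0 to 2.39 CPM in the knockouts, with overlap at Rosa KO 1. Cma1 read 12.62, 15.02, 29.1, 10.95 and 22.51 CPM in Rosa KO and 0 to 7.41 CPM (median 1.11) in the knockouts, without overlap. Kcnj8, a potassium channel gene, was at 63.44, 94.26, 124.9, 96.61 and 62.7 CPM in Rosa KO and at 3.51 to 42.7 CPM in the knockouts, a log2 fold change of -2.47 ± 0.37 (adjusted p = 0.000662), and its libraries did not overlap. Retsat, a retinol saturase gene, fell by 1.92 (adjusted p = 0.00386). Over the 34 settings, Kcnj8 passed in 33 and Retsat in 28. Retsat did not pass without the run term (0.0761) or with the share of short genes as a covariate (0.466). Kcnj8 and Retsat passed whichever library was left out, whereas Srcin1 passed in 7 of the 17 fits (adjusted p up to 0.151), Rtl5 in 8 (up to 0.128), Cma1 in 9 (up to 0.267) and Chit1 (-1.80; adjusted p = 0.0497) in 3 (up to 0.39).

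The largest rises were likewise in weakly expressed genes. Mettl27 read 0.752, 0.633, 0.224, 0.117 and 0.151 CPM in Rosa KO and 0.874 to 13.8 CPM (median 4.79) in the knockouts, without overlap, a log2 fold change of 3.79 ± 0.85 (adjusted p = 0.0258; up to 0.0751). Epha3, an ephrin receptor gene, read 1.99, 1.19, 1.34, 1.27 and 0.151 CPM in Rosa KO and 2.74 to 52.8 CPM (median 11.3) in the knockouts, again without overlap. Its difference was 2.78 ± 0.57 (adjusted p = 0.0123; up to 0.0615), at 2.12 in Asxl1 KO, 1.96 in Dnmt3a KO and 4.25 in Tet2 KO. Mettl27 passed in 11 and Epha3 in 15 of the 17 fits without 1 library, the latter failing without Rosa KO 1 or Asxl1 KO 3. Gstp3 rose by 1.57 (adjusted p = 0.0144; 0.0619 without Tet2 KO 3), while Ifngas1 (2.54; adjusted p = 0.0446; up to 0.148) and Itgad (1.63; adjusted p = 0.0487; up to 0.163) passed in 3 of those fits each and Cks1b (1.58; adjusted p = 0.0377; up to 0.154) in 9.

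The runs were also read one at a time. Within run 3, with 4 knockout and 4 Rosa KO libraries, 885 of 13893 tested genes (6.37%) passed, 415 higher (2.99%) and 470 lower (3.38%). Of the genes that passed over all runs, 82 of the 84 rises and 93 of the 103 falls passed in run 3. The libraries of run 3, with 4 of the 5 Rosa KO libraries, are part of the fit over all runs. This overlap is therefore largely built in and is no separate support. Run 1, which shares no library with run 3, has 1 Rosa KO library, and its values are given here as a description. Of the 413 genes higher in run 3 that were tested over all runs, 270 (65.4%) were higher in run 1, with a median log2 difference of 0.19 there and 0.72 in run 3. Of the 470 lower in run 3, 275 (58.5%) were lower in run 1, with medians of -0.15 and -0.78. Over all tested genes, 47.5% were higher and 52.5% lower in run 1. Rises of run 3 were thus higher in run 1 more often than all tested genes (65.4% against 47.5%). For the falls the shares lay close together (58.5% against 52.5%). Run 1 has 1 Rosa KO library, whose error enters all of these values. The medians of both sets were smaller in run 1, but the genes were chosen by passing in run 3, which favours large values there. The runs also hold different knockouts, Asxl1 KO and Tet2 KO in run 3 and Asxl1 KO and Dnmt3a KO in run 1.

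Named genes varied in how much of their size they held in run 1, whose libraries are part of the fit over all runs. Zeb2 was at -2.20 in run 3 and -1.23 in run 1, S1pr5 at -2.03 and -1.78, Itgam at -1.37 and -1.33, Klrb1c at -2.97 and -1.75 and Tcf7 at 2.16 and 1.42. Klf6 was at -1.44 and -0.31, Ldha at 0.71 and 0.18, Itgad at 2.33 and 0.22 and Ubash3b at -0.92 and 0.02. Run 1 has no Tet2 KO library, and the average of Ubash3b was carried by Tet2 KO. B cell transcripts did not move together in the runs. All 18 tested B cell markers were lower in the knockouts of run 3, with a median of -1.03, while in run 1 the median was 1.24. The lower level in run 3 was that of Asxl1 KO 3 and 4, with a summed level of 2204 and 1886 CPM, whereas Tet2 KO 3 and 4 stood at 8208 and 7413 CPM. Their summed level was 1769 CPM in Rosa KO 1, 6732 to 7503 CPM in Rosa KO 2 to 5 and 272.5 to 8208 CPM in the knockouts. With the B cell level as a covariate, 90 genes were higher and 108 lower.

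**Figure D5:**
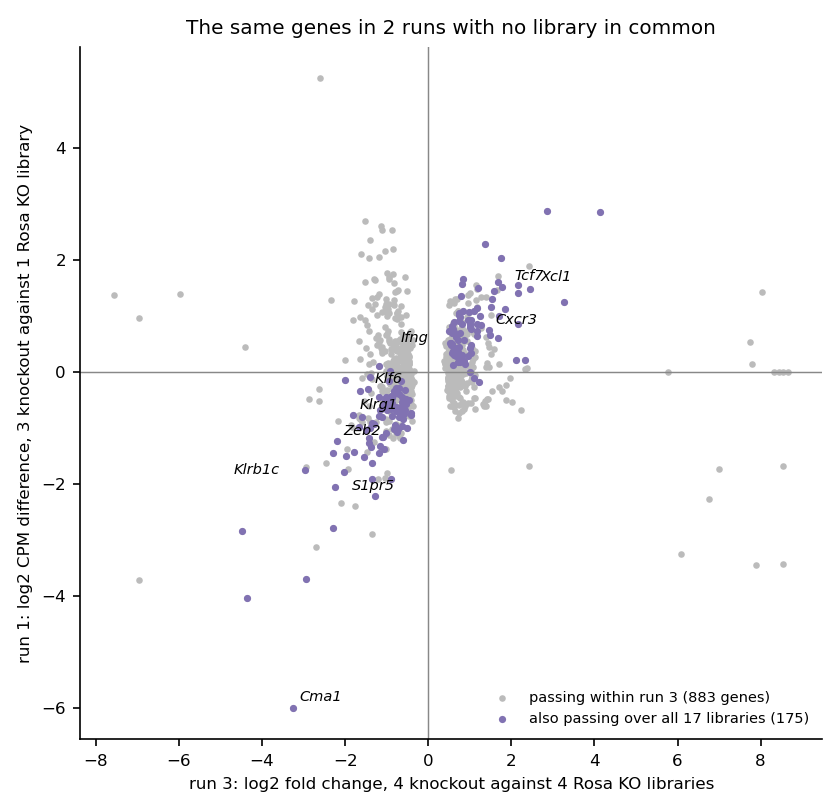
Log2 difference of the knockouts from Rosa KO in run 1 (vertical axis, 1 Rosa KO library) against run 3 (horizontal axis, 4 Rosa KO libraries) for the 413 higher and 470 lower genes that passed in run 3. Zeb2, S1pr5 and Klrb1c lie low in both, and the medians were 0.72 and -0.78 in run 3 but 0.19 and -0.15 in run 1. The genes were chosen by passing in run 3. The knockouts are Asxl1 KO and Tet2 KO in run 3 and Asxl1 KO and Dnmt3a KO in run 1.

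Promoters of the changed genes were searched for short motifs on both strands, in the 250 bases before to 50 after the annotated start. Sequences were matched for 72 of the 84 rises, 82 of the 103 falls and 10970 of all 13881 tested genes. The T-box motif AGGTGTG was found in 6.9% of the promoters of genes that rose, 2.4% of those that fell and 4.7% of all. The RUNX motif TGTGGTT was in 5.6, 6.1 and 3.9%, the TCF/LEF motif CTTTGAN in 8.3, 17.1 and 12.3%, the AP-1 motif TGANTCA in 8.3, 9.8 and 5.1% and the E-box CACCTG in 19.4, 14.6 and 17.9%, in the same order. CACCTG is also bound by ZEB proteins, and N stands for any base.

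Of the stretches printed above, that of Cxcr3 held CACCTG and that of Itgam held CTTTGAN. Promoters with fewer than 5 CG dinucleotides were 16.7% of those that rose, 20.7% of those that fell and 11.4% of all, with median CG counts of 17.5, 20 and 20. The 300 bases at Zeb2 held 9, at S1pr5 27, at Itgam 6, at Klrb1c 1 and at Cxcr3 4. These shares describe letters in a window and were not tested.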

How the data were processed

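RNA was read in 17 libraries, and the authors deposited whole-number counts per gene for each; STAR 2.5.3a, DESeq2 1.26.0 and the build mm10 are named in the submitters' processing notes without their roles. The sources used here do not give the counting tool, the annotation or the strand setting. Total counts per library set the precision: low genes vary most in Rosa KO 5 (6625833 counts). Groups came from the labels, and runs from library numbers in the descriptions. The members and gene lists were chosen with earlier results of these data known.

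Counts were analysed in R 4.3.3 with edgeR 4.0.16 (filterByExpr with a minimum count of 10 and a minimum total of 15, TMM scaling, quasi-likelihood test of group with run as a term, Benjamini-Hochberg adjustment over the 13881 genes tested of 24594). The residual degrees of freedom were 11. The contrast averages the 3 knockouts with equal weight, and a further F test compared them with each other. A standard error is the log2 fold change divided by the root of F. The threshold was an adjusted p of 0.05. Run 1 values are differences of log2 CPM with a prior count of 2. Of the identifiers, 24570 matched RefSeq GRCm38.p6, which gave coordinates, spans and promoter sequences.

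Named genes were 12 fixed T cell genes, the 3 targeted genes, up to 4 passing members of each list by smallest p, and up to 12 of the largest rises and falls that averaged 5 CPM or more on one side and kept their sign when run was dropped, other than small RNAs, pseudogenes, predicted genes, receptor segments and markers of other cells. Alternatives changed the run term, weights, normalization, filter, tool (limma 3.58.1, DESeq2 1.42.0), replicate block, knockouts, runs and libraries included, and a B cell covariate. A covariate for the share of counts in genes under 10 kb was added after seeing the data. The code was tested on simulated data. No pair of libraries within a group agreed within sampling noise. A few values are not reported here.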

Additional observations from a re-analysis of the deposited data

Results flagged for a closer look

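In the 77 named genes, 308 groups of 4 or 5 libraries were examined for a highest or lowest library far from the rest of its group, and 22 had one, where chance gives about 1 in 20. Of these, 11 concern Rosa KO 1, the only Rosa KO library of run 1. It lay above the other Rosa KO libraries for Asxl1 (160.8 CPM, others 82.09 to 98.21), Tcf7 (101.8, others 14.16 to 24.63), Tox (1142, others 436.8 to 537.5), Lag3 (95.57, others 51.75 to 60.1), Entpd1 (321.9, others 125.3 to 152.9) and Cxcr3 (183.8, others 72.75 to 81.58). It lay below them for Ifng (81.92 CPM, others 398.2 to 423.3), Klrb1c (108.4, others 234.1 to 265.7), Cd69 (48.03, others 189.9 to 227.7), Il18rap (471.6, others 955.6 to 1131) and Fasl (257.4, others 308.2 to 327.4). Tcf7, Cxcr3 and Klrb1c therefore differ less from the knockouts in Rosa KO 1 than in the other 4 control libraries.

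Asxl1 KO 2 lay below the other Asxl1 KO libraries for Klrb1c (17.67 CPM, others 35.66 to 39.48), Ccnb2 (30.63, others 46.7 to 50.26), Uqcrh (116.2, others 260.7 to 295.7), Rplp0 (560 CPM, others 1393 to 1582) and Rps20 (334.2, others 919.6 to 1078). Tet2 KO 4 was low for Il12rb2 (9.81 CPM, others 12.08 to 12.39) and Dnmt3a KO 2 for Klf6 (313.2, others 377.7 to 381.9). Dnmt3a KO 1 was low for Cdc20b (1.14 CPM, others 3.95 to 4.76) and Chit1 (0.760, others 4.24 to 5.70). Rosa KO 5 was low for Epha3 (0.151 CPM, others 1.19 to 1.99), and Srcin1 was read in Dnmt3a KO 3 at 0.652 CPM and at 0 in the other Dnmt3a KO libraries.

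The 3 knockouts differed from each other in 14 named genes by edgeR's quasi-likelihood test. The adjusted p was 1.11e-05 for Ubash3b and Gpr55, 1.15e-05 for Entpd1 and Gzma, 8.55e-05 for Tox, 0.000352 for Lag3 and 0.00139 for Tnfrsf9. It was 0.00238 for Rgs1, 0.00376 for Klra9, 0.00385 for Fasl, 0.00537 for Lat, 0.00771 for Pdcd1, 0.0132 for Cdc20b and 0.0414 for Ly6a.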

How the results depend on the processing

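Over all genes, results are given as the share of tested genes that passed, higher, lower and among the knockouts in that order, against 0.605, 0.742 and 0.612% as reported. The shares were 0.0504, 0.288 and 0.166% without the run term (7, 40 and 23 genes), 1.69, 1.91 and 1.99% with DESeq2 (232, 262 and 242 genes) and 0.986, 0.873 and 1.68% without a filter on low counts (209, 185 and 356 genes). Equal weight per library gave 0.490% lower (68 genes), limma-voom 0.915% higher, and leaving out the Dnmt3a KO libraries 1.16% higher (154 genes). Without the Tet2 KO libraries, 0.0447% were higher and 0.201% lower (6 and 27 genes). Run 3 alone gave 2.99 and 3.38% (415 and 470 genes), and the short-gene covariate, added after seeing the data, 0.0144 and 0.115% (2 and 16 genes). Run 1 alone gave 0.205 and 0.117% (28 and 16 genes), with its 1 Rosa KO library assumed to vary like the Dnmt3a KO pair. Without run 2, 1.81% differed among the knockouts (262 genes).

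Leaving out 1 library gave 0.112 to 1.18% higher, 0.244 to 1.36% lower and 0.37 to 1.22% differing among the knockouts. The higher and lower counts were 16 and 35 without Tet2 KO 3, 27 and 44 without Tet2 KO 4, 28 and 46 without Rosa KO 5, 29 and 54 without Asxl1 KO 3, 33 and 54 without Dnmt3a KO 2, 35 and 58 without Rosa KO 4 and 169 and 195 without Asxl1 KO 1. The lower count alone moved by more than 1.5 times without Rosa KO 2 (58 genes), Rosa KO 3 (66) and Asxl1 KO 4 (67), and the count among the knockouts without Asxl1 KO 2 (174) and Tet2 KO 3 (53). The cause of these moves was not tested.

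Of the changed genes, 13 higher and 34 lower passed whichever library was left out. These include 32 of the 67 named genes that passed. Adding the fits without the run term and with the short-gene covariate left 1 higher gene (Kbtbd11, named after its value was seen) and 12 lower (S1pr5, Zeb2, Bhlhe40, Ccl9, Gzma, Itgam, Kcnj8, Klrb1c, Klre1, Nabp1, Nfkbiz and Rgs1). Among the 67 named genes that passed, those whose direction reversed were Rps20, at -0.057 with the replicate block in place of run, and Ubash3b, at 0.015 in run 1 alone.

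The labels do not say that the replicate numbers pair the libraries. Over 24 same-numbered pairs the median correlation of deviations was 0.026, with 3 over 0.1. Over 84 other pairs it was -0.005, with 6 over 0.1. Pairs of the same run had a median of 0.037, with 8 of 33 over 0.1, so these correlations cannot exclude a pairing. The replicate block in place of run gave 0.0288% higher, 0.202% lower and 0.0864% differing among the knockouts (4, 28 and 12 genes), and the block together with run gave 0.0504, 0.151 and 0.274% (7, 21 and 38 genes).

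Run 2 has no Rosa KO library, Dnmt3a KO rests on 1 Rosa KO library of its own run, and Rosa KO 5 is the shallowest. Genes near the filter on low counts are the least precise.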
